A study of Mus musculus with 4 samples.

Results

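The 34 genes described here encode the proteins that bring glucose into the cell, split it to pyruvate, exchange pyruvate for lactate and admit pyruvate to the mitochondrion. They were chosen by name, as the rows of the deposited gene table whose symbol equals one of 34 listed enzymes and transporters, and all 34 were found among its 50600 rows. Each of the 34 also passed the low-count filter, so that all of them are among the 12573 genes tested. The study compared adipose-derived regenerative cells (ADRCs), the plastic-adherent mesenchymal cells grown from mouse fat, with ADRCs that had received 6 transcriptional factors by lentivirus. The ADRC group held 2 libraries of passage 2 cells from mice aged 8 weeks, with the strain given as C57BL/6J. The other group, called 6F here, held 2 libraries of passage 2 ADRCs from reporter mice, C57BL/6-Tg (Myh6-EGFP) MG3Tm; MG3, taken 3 weeks after the factors were delivered and sorted for GFP. That reporter expresses GFP from the Myh6 promoter, which drives the alpha myosin heavy chain in heart muscle, and the sort kept the GFP-positive cells. The ADRC titles mention the reporter too, although their strain label does not. Transduction, time in culture, sorting and, by the labels, strain differ between the groups together and cannot be told apart.

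Glycolysis is run by enzymes that mostly come in tissue-specific isoforms. Proliferating and fibroblast-like cells favour hexokinase 2, the M2 form of pyruvate kinase and lactate dehydrogenase A, whereas heart muscle is known for the muscle phosphofructokinase PFKM, lactate dehydrogenase B, the glucose transporter GLUT4 and a high capacity to oxidise pyruvate. Pyruvate enters mitochondria through the carrier formed by MPC1 and MPC2 and is turned into acetyl-CoA by the pyruvate dehydrogenase complex, which the PDK kinases switch off and the PDP phosphatases switch on. Many genes of the glycolytic chain are textbook targets of the hypoxia-inducible factors.

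Exon reads per library ranged from 2273897 to 2662128 in ADRCs and from 6986223 to 7593772 in 6F cells. The 3 genes known to collect ribosomal RNA reads, Rn18s-rs5, Gm26917 and Lars2, held 10.5% and 9.43% of them in ADRCs and 1.66% and 0.998% in 6F cells. Since the column names carry the group without a replicate, the libraries are named ADRC a and b and 6F a and b. Single members drew between 2 and 22559 reads in a library. Values are reads per 1e+06 exon reads (CPM) on library sizes scaled by TMM, a scaling that corrects for differences in RNA composition. Levels of different genes are compared only as RPKM, here the same CPM per kilobase of exon. The mesenchymal markers Pdgfra, Pdgfrb, Thy1 and Eng were read in all 4 libraries, and of the 8 mesenchymal markers 4 fell in 6F cells (Pdgfrb, Thy1, Eng and Col1a1), 2 rose (Dcn and Lum) and 2 did not pass the test. Thy1 had 569 and 553 CPM in ADRCs and 299.7 and 387 CPM in 6F cells, and Dcn, which encodes decorin, 76.5 and 71.2 CPM against 406 and 415 CPM. By contrast 8 cardiomyocyte markers summed to 26.0 and 31.2 CPM in ADRCs and to 4300 and 4230 CPM in 6F cells. Smooth muscle markers, 6 in number, also summed higher, to 4792 and 4901 CPM in ADRCs and to 11967 and 10730 CPM in 6F cells. Of these 6, 4 rose, 0 fell and 2 did not pass the test. Markers of dividing cells, 6 in number, summed to 934 and 996 CPM in ADRCs and to 36.9 and 44.1 CPM in 6F cells. The part of these differences in cell make-up in the results below was not tested. Whether the libraries within a group stem from separate cultures is not stated in the labels, and every p-value therefore rests on the spread of these 4 libraries alone, which may be technical. Several glycolytic genes, Gapdh, Pgk1 and Ldha among them, have processed pseudogenes with which reads can be shared, and the counts do not resolve this. In bulk RNA, fewer cells of a type and less RNA per cell cannot be told apart.

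Of the 34 members, 12 rose in 6F cells, 0 fell and 22 did not pass the test (edgeR's quasi-likelihood test, Benjamini-Hochberg adjusted p under 0.05 over all tested genes). Over all 12573 tested genes the same call took 24.2% as higher and 22.8% as lower, against 35.3% and 0 among the members. The median log2 fold change of the members was 0.68, beside 0.07 for all tested genes. No member had a negative change at an unadjusted p under 0.05, a count of 0, and the DESeq2 Wald test also called 0 lower. The 12 that rose were Slc2a1, Hk1, Pfkm, Pfkfb3, Aldoc, Pgk1, Ldhb, Pdk1, Pdk2, Pdhb, Mpc1 and Mpc2, and 11 of them changed at least 2-fold, a size at which 18.6% of all tested genes were called higher. The abundant genes Aldoa, Tpi1, Gapdh, Pkm and Ldha did not pass. Both 6F libraries lay above both ADRC libraries for 19 members, or 55.9%, where 40.5% of all tested genes did so, and below them for 1 member, Gapdh, where 37.4% of all tested genes did so. The 6F libraries themselves stood far apart for many members, and leaving out 6F library b turned 6 members into lower calls, namely Hk2, Aldoa, Gapdh, Pkm, Ldha and Slc16a3. Leaving out 6F library a instead gave 26 higher and 0 lower members, and without one or the other ADRC library 6 were called higher. In the fits without a 6F library the spread comes from the 2 ADRC libraries alone, and the lone 6F library is assumed to vary as they do.

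**Figure D1:**
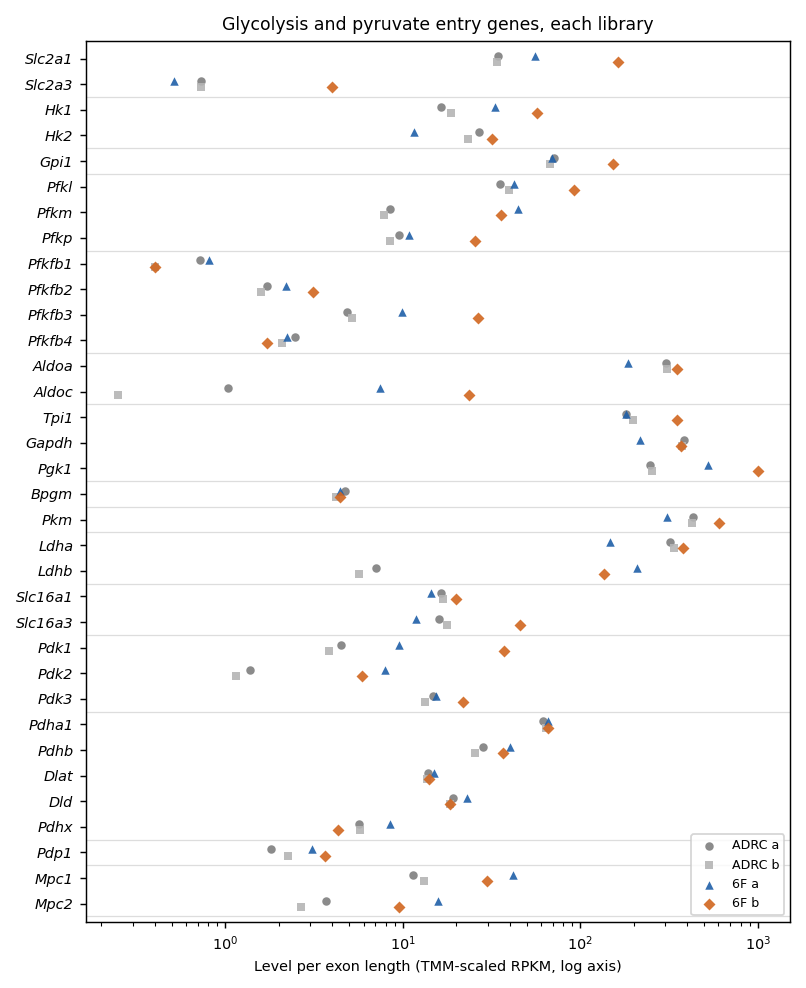
Level of each member per exon length in the 4 libraries (TMM-scaled RPKM, log axis), grouped by step of the pathway from glucose entry at the top to the mitochondrial pyruvate carrier at the bottom. The 2 ADRC libraries (grey) nearly coincide for most genes, whereas 6F library b (orange) lies to the right of 6F library a (blue) for 22 of the 34 members; Ldhb moves from 7.05 and 5.67 RPKM in ADRCs to 207 and 135 RPKM in 6F cells.

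Glucose entry rests on GLUT1, the product of Slc2a1 (ENSMUSG00000028645; GRCm38 chromosome 4, 119108711 to 119137983), the transporter of basal uptake in most cells. Slc2a1 stood at 121 and 119 CPM in the ADRC libraries and at 194 and 569 CPM in the 6F libraries a and b. Both 6F values exceeded both ADRC values, and they differed from each other more than the lower one did from ADRCs. The log2 fold change was 1.67 ± 0.47 (SE; edgeR adjusted p = 0.0268). With 6F library b left out it was 0.73, with 6F library a left out 2.26, and the call was lost without either ADRC library (edgeR adjusted p = 0.127 and 0.129). Slc2a3, which encodes the high-affinity transporter GLUT3, was read at 5.30 and 5.26 CPM in ADRCs and at 3.74 and 28.8 CPM in 6F cells, so that the groups overlapped (edgeR adjusted p = 0.207). Per length, Slc2a1 made up 97.6% to 99.1% of the level of these 2 transporters in every library.

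Hexokinase traps glucose as glucose-6-phosphate. Hk1 (ENSMUSG00000037012; chromosome 10, 62268855 to 62379908), the form of brain and most tissues, had 141 and 159 CPM in ADRCs and 283 and 483 CPM in 6F cells. Its levels did not overlap between the groups, and it rose by 1.36 ± 0.27 on the log2 scale (edgeR adjusted p = 0.00808; 0.0922 and 0.0674 without ADRC library a or b). Hk2, the inducible form of growing cells and insulin-sensitive muscle, had 160.3 and 139 CPM in ADRCs and 68.6 and 189 CPM in 6F cells. One 6F library thus lay below and the other above the ADRCs, and Hk2 was not called (log2 fold change -0.21 ± 0.43, edgeR adjusted p = 0.709; with scaling by library size alone its sign turned, to 0.01). The share of Hk1 in the per-length level of both hexokinases was 38.0% and 44.4% in ADRCs and 74.3% and 64.1% in 6F cells. The order of the isoforms was reversed in both 6F libraries, with Hk1 above Hk2. An exact two-sided permutation test on the isoform ratio gave p = 0.333, the smallest value that 2 libraries against 2 allow, so that no share reported here can pass a threshold of 0.05. Gpi1, glucose-6-phosphate isomerase, stood at 459 and 437 CPM in ADRCs and at 446 and 979 CPM in 6F cells, with overlapping groups (edgeR adjusted p = 0.159).

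Phosphofructokinase makes the committing step of the chain, and of its 3 isoforms the muscle form passed the test. Pfkm (ENSMUSG00000033065; chromosome 15, 98092589 to 98132451), the muscle isoform, had 25.0 and 23.1 CPM in ADRCs and 132 and 106 CPM in 6F cells. Here the 6F libraries lay close together and far above the ADRCs, and Pfkm rose by 2.31 ± 0.20 on the log2 scale (edgeR adjusted p = 0.000464), a call that held without any one library. Pfkl, the liver isoform, had 165 and 184 CPM in ADRCs and 197 and 429 CPM in 6F cells. Pfkp, the platelet isoform, had 89.1 and 79.7 CPM in ADRCs and 102 and 239 CPM in 6F cells. Both lay higher in both 6F libraries without passing the test (edgeR adjusted p = 0.0912 and 0.0702), and both were called higher by the DESeq2 Wald test. Per length, Pfkm took 15.9% and 14.0% of the phosphofructokinase level in ADRCs, 45.6% in 6F library a and 23.4% in 6F library b, and Pfkl fell short of its ADRC shares of 66.3% and 70.8% with 43.3% and 60.0%.

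The PFKFB enzymes make and break fructose-2,6-bisphosphate, the strongest allosteric activator of phosphofructokinase. Pfkfb3 (ENSMUSG00000026773; chromosome 2, 11471433 to 11554077), whose product has a high kinase activity and so favours glycolysis, had 36.6 and 39.2 CPM in ADRCs and 74.7 and 199.6 CPM in 6F cells. It rose by 1.85 ± 0.45 on the log2 scale (edgeR adjusted p = 0.0173), with 1.00 without 6F library b and the call lost without either ADRC library (adjusted p = 0.0968 and 0.0852). Pfkfb2, the heart isoform, had 10.6 and 9.71 CPM in ADRCs and 13.5 and 19.2 CPM in 6F cells (edgeR adjusted p = 0.108). Pfkfb4, the form first described in testis, stood between 6.98 and 10.1 CPM in all libraries, and Pfkfb1, the liver and skeletal muscle form, between 1.61 and 3.26 CPM, without a call. Pfkfb3 held 49.6% and 56.1% of the per-length level of the 4 genes in ADRCs and 65.4% and 83.5% in 6F cells.

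**Figure D2:**
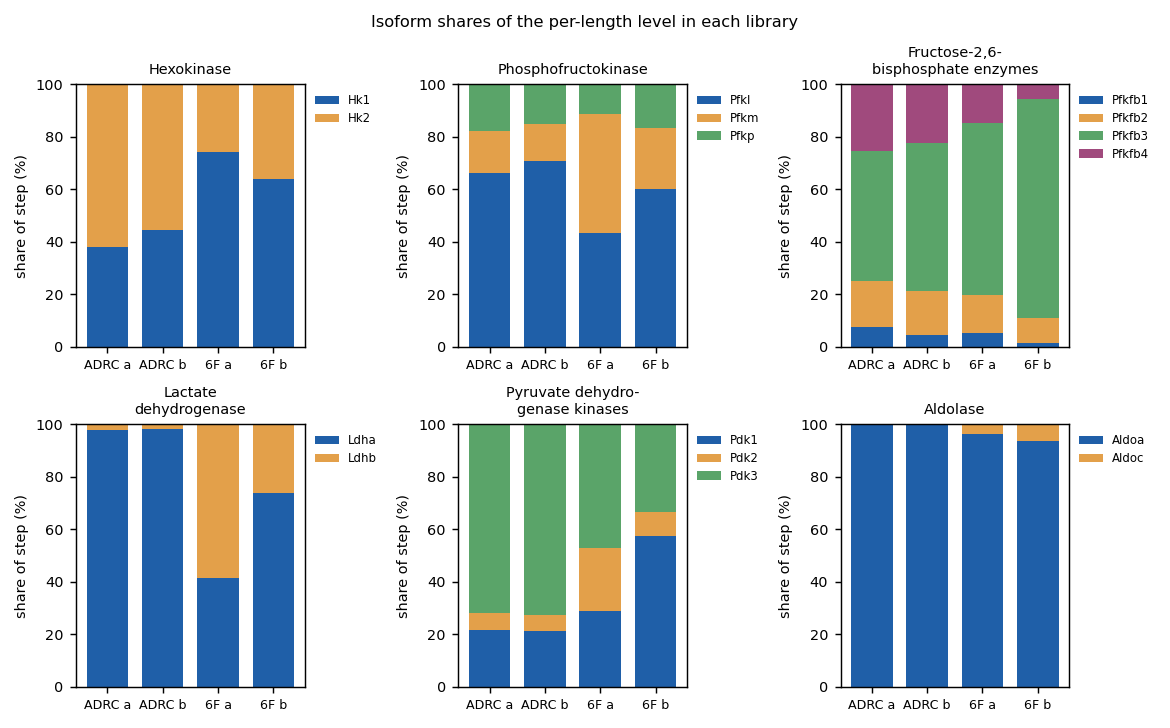
Share of each isoform in the per-length level of its step, for the 4 libraries and 6 steps, namely hexokinase, phosphofructokinase, the PFKFB enzymes, lactate dehydrogenase, the pyruvate dehydrogenase kinases and aldolase (stacked bars, percent of the step). Ldhb goes from 2.15% and 1.65% in ADRCs to 58.4% and 26.2% in 6F cells, and Hk1 overtakes Hk2 in both 6F libraries. The Pdk1 share among Pdk1, Pdk2 and Pdk3, with Pdk4 left out, is 28.9% in 6F library a and 57.5% in 6F library b.

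In the middle of the chain the abundant genes did not pass the test. Aldoa, the muscle and ubiquitous aldolase, had 1149 and 1159 CPM in ADRCs and 702 and 1320.0 CPM in 6F cells. Tpi1, triose phosphate isomerase, had 401 and 437 CPM in ADRCs and 398 and 772 CPM in 6F cells. Gapdh, which makes the first NADH of the pathway, had 984 and 964 CPM in ADRCs and 559 and 943 CPM in 6F cells. For Aldoa and Tpi1 the groups overlapped, for Gapdh they did not by a narrow margin, and none was called (edgeR adjusted p = 0.623, 0.237 and 0.27; the log2 fold change of Aldoa, -0.19, became 0.04 with scaling by library size alone). Pkm, which encodes pyruvate kinase M1 and M2 by alternative splicing that gene counts cannot resolve, had 2155 and 2131 CPM in ADRCs and 1537 and 3026 CPM in 6F cells (edgeR adjusted p = 0.829). Bpgm, which diverts the pathway to 2,3-bisphosphoglycerate, drew 35 and 37 reads in ADRCs and 131 and 119 reads in 6F cells, at most 16.8 CPM in any library, with no call.

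Pgk1 and Aldoc were the exceptions among the middle steps. Pgk1 (ENSMUSG00000062070; chromosome X, 106187100 to 106203699), phosphoglycerate kinase, which makes the first ATP of the chain, had 555 and 566 CPM in ADRCs and 1175 and 2260.4 CPM in 6F cells. It rose by 1.62 ± 0.31 on the log2 scale (edgeR adjusted p = 0.00741; 0.0772 and 0.0722 without ADRC library a or b). Per length it was the most abundant member in both 6F libraries, at 523 and 1007 RPKM, whereas Pkm held that place in ADRCs at 431 and 426 RPKM. Aldoc (ENSMUSG00000017390; chromosome 11, 78322968 to 78327781), the aldolase of brain, drew 7 and 2 reads in ADRCs and 200 and 574 reads in 6F cells, or 3.37 and 0.809 against 24.1 and 77.0 CPM. Aldoc rose by 4.64 ± 0.83 on the log2 scale (edgeR adjusted p = 0.00572), with 3.62 when 6F library b was left out and 5.90 when ADRC library a was, and its size rests on 9 ADRC reads. It remained a small part of the aldolase level, 3.81% and 6.30% per length in 6F cells.

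At lactate dehydrogenase the A form is the one of anaerobic muscle and growing cells and the B form that of heart. Ldhb (ENSMUSG00000030246; chromosome 6, 142490249 to 142507957) had 11.1 and 8.90 CPM in ADRCs and 326 and 212 CPM in 6F cells. The groups were far apart, and Ldhb rose by 4.76 ± 0.30 on the log2 scale, or 27.0-fold (edgeR adjusted p = 0.000181), the lowest adjusted p of the members; without single libraries the value ranged from 4.43 to 5.06 and stayed called. Ldha (ENSMUSG00000063229; chromosome 7, 46841475 to 46855627) had 1064 and 1117 CPM in ADRCs, 489 CPM in 6F library a and 1260 CPM in 6F library b, so that the ADRC values fell between the 6F values (log2 fold change -0.32 ± 0.40, edgeR adjusted p = 0.545). Per length Ldhb made up 2.15% and 1.65% of both genes in ADRCs, 58.4% in 6F library a and 26.2% in 6F library b. Ldhb thus exceeded Ldha in 1 of the 2 6F libraries. The monocarboxylate transporters that carry lactate across the membrane were not called: Slc16a1, which encodes MCT1, had 72.2 and 74.0 CPM in ADRCs and 64.0 and 88.1 CPM in 6F cells, and Slc16a3, which encodes the lactate exporter MCT4, had 85.2 and 94.3 CPM against 63.0 and 243 CPM (edgeR adjusted p = 0.835 and 0.3).

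At the mitochondrial door, both subunits of the pyruvate carrier rose, while of the dehydrogenase complex 1 subunit gene in 5 passed the test. Mpc1 (ENSMUSG00000023861; chromosome 17, 8282904 to 8297661) had 23.6 and 27.5 CPM in ADRCs and 86.4 and 61.7 CPM in 6F cells. Mpc2 (ENSMUSG00000026568; chromosome 1, 165460637 to 165481214) had 14.0 and 10.1 CPM in ADRCs and 60.1 and 36.2 CPM in 6F cells. Both subunits lay well above the ADRCs in both 6F libraries, rising by 1.53 ± 0.24 and 2.01 ± 0.33 on the log2 scale (edgeR adjusted p = 0.00332 and 0.00434), and both calls held without any one library. Of the 5 subunit genes of the pyruvate dehydrogenase complex, Pdhb alone was called, which encodes the E1 beta subunit (ENSMUSG00000021748; chromosome 14, 8165996 to 8173025). Its rise was small, from 41.9 and 38.0 CPM to 59.6 and 54.6 CPM (log2 fold change 0.52 ± 0.17, edgeR adjusted p = 0.0495), and the call was lost in 5 of the 11 alternative fits, DESeq2's test among them (adjusted p = 0.167). Pdha1, the E1 alpha subunit, stood between 229 and 244 CPM in all libraries. Dlat, the E2 subunit, stood between 66.8 and 73.5 CPM and Dld, the shared E3 subunit, between 67.6 and 84.7 CPM. Pdhx, the E3 binding protein, had 22.1 and 22.7 CPM in ADRCs and 33.2 and 17.0 CPM in 6F cells. None of these 4 was called (edgeR adjusted p between 0.51 and 0.734).

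Among the regulators of the complex, Pdk1 and Pdk2 rose. Pdk1 (ENSMUSG00000006494; chromosome 2, 71873224 to 71903858), the kinase known as a hypoxia target, had 34.7 and 29.9 CPM in ADRCs and 73.7 and 289.7 CPM in 6F cells. It rose by 2.49 ± 0.62 on the log2 scale (edgeR adjusted p = 0.0183), with 1.23 when 6F library b was left out, 3.18 when 6F library a was left out and the call lost without either ADRC library (adjusted p = 0.0813 and 0.0944). Pdk2 (ENSMUSG00000038967; chromosome 11, 95026258 to 95041354), a widely expressed kinase, was read at 4.33 and 3.64 CPM in ADRCs and at 25.0 and 18.6 CPM in 6F cells, a rise of 2.45 ± 0.33 that held without any one library (edgeR adjusted p = 0.00213). Pdk3 had up to 38.0 CPM in ADRCs and 39.5 and 55.5 CPM in 6F cells, and Pdp1, the phosphatase that reactivates the complex, 8.18 and 10.1 CPM against 13.9 and 16.5 CPM. Both lay higher in both 6F libraries without a call (edgeR adjusted p = 0.193 and 0.0826). Pdk3 was the leading kinase gene of the 3 per length in ADRCs, at 71.8% and 72.6%, and Pdk1 in 6F library b, at 57.5%, while Pdk3 still led in 6F library a at 47.0%. These shares leave out Pdk4, a further kinase gene that is not a member. With Pdk4 counted, Pdk1 took 21.8% and 49.3% in 6F libraries a and b. Pdk4 itself took 10.1% and 13.6% in ADRCs and 24.7% and 14.1% in 6F libraries a and b.

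**Figure D3:**
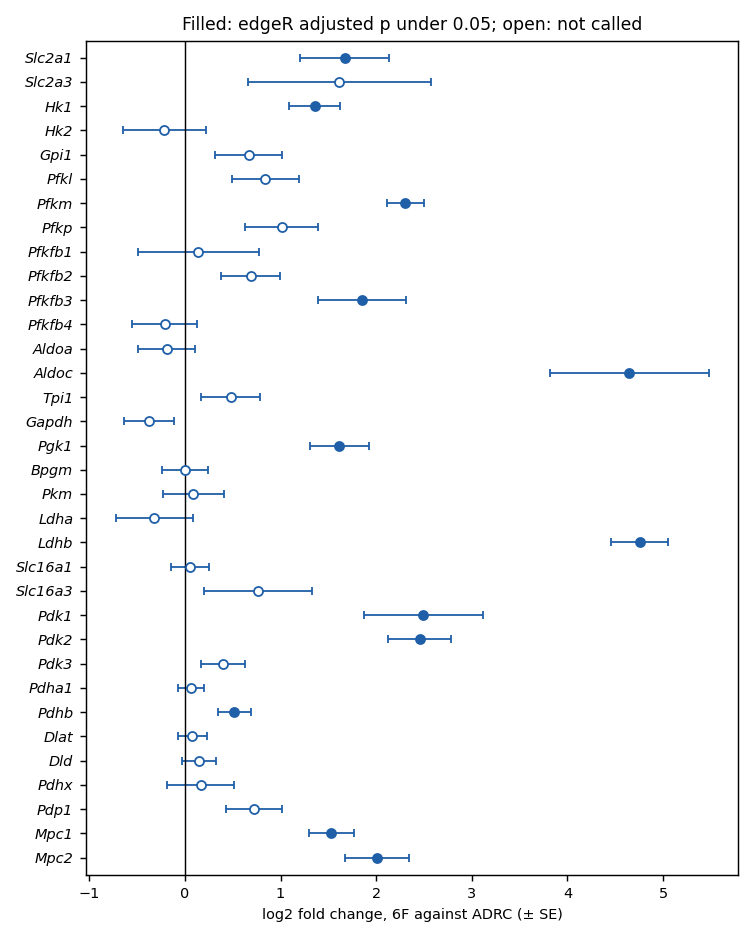
Log2 fold change of each member, 6F against ADRC, with its SE from the edgeR fit over all 4 libraries; filled points passed the adjusted p threshold of 0.05 and open points did not. The 12 filled points all lie to the right of 0, led by Ldhb at 4.76 and Aldoc at 4.64.

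The 2 6F libraries differed in these genes along the pathway. Library b stood at least 2-fold above library a for 11 of the 34 members, where 6.24% of all tested genes did so, and library a at least 2-fold above b for 1, Pfkfb1, where 3.09% of all tested genes did so. The median size of the log2 difference between the 6F libraries was 0.84 for the members and 0.31 for all tested genes, while between the ADRC libraries it was 0.13 and 0.19. By sign alone, 19 of the 23 genes from glucose entry to lactate transport were higher in b and 4 in a. Of the 11 mitochondrial genes 3 were higher in b and 8 in a, beside 50.0% of all tested genes that were higher in b. With 1 library on each side there is no replicate check of these differences, and the intervals that follow cover counting error only.

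The widest gaps toward library b were those of Slc2a3, 7.71-fold with a 95% exact counting interval of 5.27 to 11.6, Pdk1, 3.93-fold (3.59 to 4.30), Slc16a3, 3.86-fold (3.50 to 4.26), and Aldoc, 3.19-fold (2.71 to 3.77). Slc2a1 stood 2.93-fold, Hk2 2.76-fold, Pfkfb3 2.67-fold and Ldha 2.58-fold higher in b. The chain of Gpi1, Pfkl, Aldoa, Tpi1, Gapdh, Pgk1 and Pkm followed with ratios between 1.69 and 2.20. Pdk3 and Pfkfb2 also stood higher in b, 1.41-fold (1.21 to 1.63) and 1.42-fold (1.10 to 1.83). The pyruvate carrier, the subunits of the dehydrogenase complex, Pdk2, Ldhb and Pfkm lay the other way or had an interval that spans equality. Pdhx was 1.95-fold, Mpc2 1.66-fold, Ldhb 1.53-fold, Mpc1 1.40-fold, Pdk2 1.34-fold and Pfkm 1.24-fold higher in library a. The counting interval lay wholly above equality for 20 members, wholly below it for 7 and across it for 7, among them Pdha1, Pdhb and Dlat. By the sign of the ratio alone, the 12 members that rose against ADRCs divide evenly. In library b 6 were higher (Slc2a1, Hk1, Pfkfb3, Aldoc, Pgk1 and Pdk1) and in library a 6 (Pfkm, Ldhb, Pdk2, Pdhb, Mpc1 and Mpc2), Pdhb with an interval that spans equality. Summed over all 34 members, CPM came to 8277 and 8321 in ADRCs, 7673 in 6F library a and 14399 in 6F library b.

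**Figure D4:**
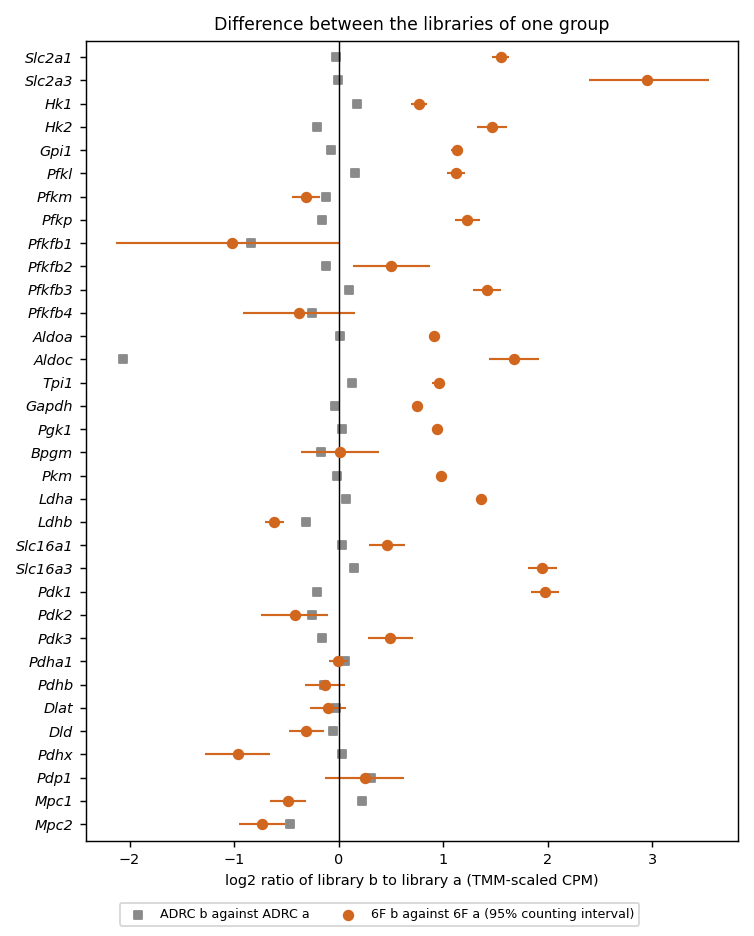
Log2 ratio of library b to library a for each member on TMM-scaled CPM, in ADRCs (grey squares) and in 6F cells (orange points, lines for the 95% counting interval). The ADRC ratios stay within 0.46 of 0 except for Aldoc and Pfkfb1, which had 2 to 7 reads, whereas the 6F ratios run from -1.02 for Pfkfb1, with a wide interval, and -0.96 for Pdhx to 2.95 for Slc2a3.

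Other features of the 6F libraries moved with this difference. Of 6 listed macrophage markers 5 were analysed, and they summed to 239 and 253 CPM in ADRCs, 10.3 CPM in 6F library a and 106 CPM in 6F library b. Lyz2, macrophage lysozyme, had 4.10 and 81.7 CPM in 6F libraries a and b, and Ptprc and Adgre1, which encode CD45 and F4/80, had 0 reads in library a and 2.95 and 7.78 CPM in library b. The 8 mesenchymal markers summed to 10710.0 and 14898 CPM in 6F libraries a and b, the 8 cardiomyocyte markers to 4300 and 4230 CPM, the 6 smooth muscle markers to 11967 and 10730.0 CPM, and the 6 markers of dividing cells to 36.9 and 44.1 CPM. Such sums follow the most abundant markers. Singly, 5 of the 8 cardiomyocyte markers were higher in library a and 3 in b, with a median log2 ratio of b to a of -0.49. A gap of at least 2-fold was seen for 1 of them in each direction. The 6 endothelial markers summed to 36.1 and 40.9 CPM in ADRCs and to 12.1 and 28.3 CPM in 6F libraries a and b, and the 4 of them that were tested were all higher in library b. The 6 adipocyte markers summed to 62.1 and 62.3 CPM in ADRCs and to 57.0 and 15.3 CPM in 6F libraries a and b, and the 3 tested were all higher in library a, while Lep had 0 reads in every library. The column names give 6F library a a different sequencing lane number from 6F library b and both ADRC libraries. The part of these features in the difference between the 6F libraries was not tested.

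Promoter sequence is shown for 6 genes, chosen after their values were seen, since members of the glycolytic chain moved together between the 6F libraries: Pgk1, Ldha, Slc16a3 and Pdk1, which were higher in library b, and Ldhb and Pfkm, which were higher in library a. They include genes with and without the motif searched in both directions. The windows run 5′ to 3′ from 250 bases before to 50 bases after the RefSeq start (GRCm38.p6). Capitals mark ACGTG, called the core here, on either strand, which reads CACGT on the other. ACGTG is a form of the core of the hypoxia response element. The form GCGTG was not searched, so a window without ACGTG can still hold it, as the printed Pdk1 and Ldhb windows do. The E-box CACGTG, bound by MYC and its relatives, holds the core on both strands.
Pgk1, chrX:106186850-106187149, plus strand: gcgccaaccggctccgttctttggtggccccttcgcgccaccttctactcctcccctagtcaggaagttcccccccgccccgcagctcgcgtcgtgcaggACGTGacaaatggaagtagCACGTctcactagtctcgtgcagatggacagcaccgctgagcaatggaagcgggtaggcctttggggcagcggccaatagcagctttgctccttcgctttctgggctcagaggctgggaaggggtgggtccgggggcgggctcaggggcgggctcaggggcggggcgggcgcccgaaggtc
Ldha, chr7:46845554-46845853, plus strand: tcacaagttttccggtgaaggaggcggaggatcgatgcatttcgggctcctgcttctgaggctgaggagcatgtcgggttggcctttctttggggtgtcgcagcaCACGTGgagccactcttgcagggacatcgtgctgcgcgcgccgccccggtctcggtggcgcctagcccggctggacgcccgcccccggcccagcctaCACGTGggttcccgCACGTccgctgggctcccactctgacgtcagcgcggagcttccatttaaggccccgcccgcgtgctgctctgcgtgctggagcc
Slc16a3, chr11:120948817-120949116, plus strand: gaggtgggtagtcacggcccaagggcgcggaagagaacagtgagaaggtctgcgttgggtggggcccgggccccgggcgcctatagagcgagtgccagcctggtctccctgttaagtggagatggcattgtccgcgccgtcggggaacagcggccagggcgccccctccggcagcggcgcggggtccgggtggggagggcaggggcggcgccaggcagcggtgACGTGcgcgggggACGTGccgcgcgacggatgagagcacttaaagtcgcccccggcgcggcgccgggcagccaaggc
Pdk1, chr2:71872974-71873273, plus strand: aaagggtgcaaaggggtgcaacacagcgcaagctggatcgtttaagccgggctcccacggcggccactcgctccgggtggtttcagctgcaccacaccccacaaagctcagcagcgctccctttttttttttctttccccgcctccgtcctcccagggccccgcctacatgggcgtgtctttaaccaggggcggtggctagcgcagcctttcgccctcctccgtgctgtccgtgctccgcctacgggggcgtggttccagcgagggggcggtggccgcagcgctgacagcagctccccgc
Ldhb, chr6:142507908-142508207, minus strand: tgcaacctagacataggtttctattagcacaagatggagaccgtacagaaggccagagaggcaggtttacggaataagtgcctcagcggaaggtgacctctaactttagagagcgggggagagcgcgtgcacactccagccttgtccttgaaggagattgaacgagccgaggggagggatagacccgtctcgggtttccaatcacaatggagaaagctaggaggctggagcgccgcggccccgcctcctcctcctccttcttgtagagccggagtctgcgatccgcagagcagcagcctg
Pfkm, chr15:98092339-98092638, plus strand: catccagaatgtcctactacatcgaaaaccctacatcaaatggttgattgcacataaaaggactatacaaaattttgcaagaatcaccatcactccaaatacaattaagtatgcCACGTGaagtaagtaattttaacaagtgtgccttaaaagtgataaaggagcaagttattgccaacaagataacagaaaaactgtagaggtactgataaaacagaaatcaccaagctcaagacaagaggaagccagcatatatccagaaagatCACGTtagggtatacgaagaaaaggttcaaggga
The Pgk1 and Slc16a3 windows each held the core at 2 places outside an E-box. The upstream Ldha window held 2 E-boxes and a further core, and the Pdk1 and Ldhb windows held no ACGTG on either strand. The most upstream of 4 Pfkm windows, the one printed, held 1 E-box and 1 further core. The Pfkm window that starts at 98108221 held 1 core, and those that start at 98108306 and 98111810 held none. Which start these cells use was not tested. A RefSeq window was found for 32 of the 34 members, and 17 of these 32, or 53.1%, had the core in at least 1 of their windows, against 21.8% of 27025 genes with a window. Genes with more windows have more places for a match. Counted by window, the core was in 42.0% of 50 member windows and in 19.6% of all 32851 windows. Sorted by the sign of the ratio alone, 14 of the 20 members higher in 6F library b had the core. Of the 12 higher in library a, 3 had it, namely Pfkm, Pdk2 and Pdhb. This split counts members whose counting interval spans equality, among them Bpgm in b and Pdha1, Pdhb and Dlat in a. The same shares among all genes higher in b or in a were not computed, so the split has no background beside it. The core was found in no window of Pdk1, Gpi1, Tpi1, Pfkl, Pfkp or Bpgm, which were higher in library b. The E-box was found in 18.8% of the members with a window and in 8.09% of all genes. A match is a description of the letters in these windows and shows no binding.

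The neighbouring pathways give the members their setting. Of 16 tested targets of the hypoxia-inducible factors outside glycolysis, 8 rose, 0 fell and 8 did not pass in 6F cells, and all 16 were higher in 6F library b than in a, with a median log2 ratio of 1.30. No other list of the 8 pathway lists was wholly higher in library b. Among the marker lists, all 5 macrophage and all 4 endothelial markers tested were also higher in b. Their median log2 ratios were 1.78, over the 3 macrophage markers read in both libraries, and 1.59. Egln3, an oxygen-sensing prolyl hydroxylase, had 3.85 and 2.43 CPM in ADRCs and 22.7 and 89.9 CPM in 6F cells, and Bnip3, a mitophagy receptor, had 58.7 and 53.8 CPM against 145 and 578 CPM (edgeR adjusted p = 0.00833 and 0.0136). Ankrd37 drew 3 reads over both ADRC libraries, and the depth-scaled ratio of 6F to ADRC reads was 11.8 (95% exact counting interval 3.93 to 57.8). Car9, a carbonic anhydrase, drew 2 such reads, and its ratio was 10.8 (2.90 to 91.1). Of 17 genes of the tricarboxylic acid cycle, 1 rose, 0 fell and 16 did not pass, and 15 were higher in 6F library a, with a median log2 ratio of b to a of -0.33. The one that rose was Idh2, the mitochondrial NADP-dependent isocitrate dehydrogenase, from 107 and 103 CPM to 640.0 and 387 CPM (edgeR adjusted p = 0.00117). Of 8 genes of the shuttles that move cytosolic NADH into mitochondria, 4 rose and 0 fell, and all 8 were higher in 6F library a. They were Gpd1l at a log2 fold change of 1.94, Mdh1 at 1.06, Gpd2 at 0.73 and Slc25a11 at 0.51.

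**Figure D5:**
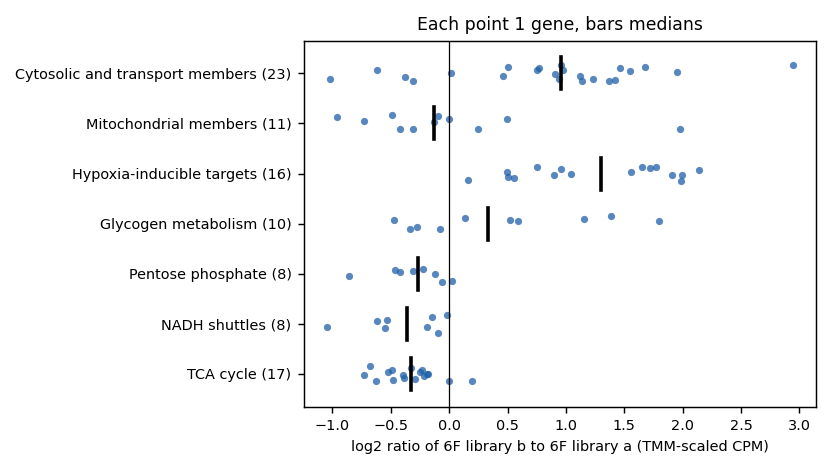
Log2 ratio of 6F library b to 6F library a for the members and for the tested genes of 5 neighbouring pathways (1 point a gene, bars for medians, number of genes in parentheses). The median is 0.96 for the 23 cytosolic and transport members and 1.30 for the hypoxia-inducible targets, and -0.33 for the tricarboxylic acid cycle.

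Several isoforms of the same steps are not members. Of 20 tested, 12 rose, 5 fell and 3 did not pass. Slc2a4, which encodes GLUT4, the insulin-regulated transporter of muscle and fat, drew 3 and 1 reads in ADRCs and 202 and 168 reads in 6F cells, a log2 fold change of 4.69 ± 0.47 (edgeR adjusted p = 0.000742), and took 11.1% and 3.75% of the per-length level of Slc2a1, Slc2a3 and Slc2a4 in 6F cells. Eno3, the muscle enolase, had 6.26 and 9.71 CPM in ADRCs and 111 and 89.3 CPM in 6F cells, a rise of 3.63 ± 0.27 (edgeR adjusted p = 0.000291), and reached 24.6% and 10.6% of the per-length enolase level against 0.925% and 1.41% in ADRCs. Ldhd, a mitochondrial dehydrogenase of D-lactate, drew 1 read over both ADRC libraries, and its depth-scaled ratio was 57.5 (95% exact counting interval 10.2 to 2283). Hk3, the hexokinase of blood cells, fell from 16.4 and 15.4 CPM to 0 and 2.15 CPM (log2 fold change -3.90 ± 1.00, edgeR adjusted p = 0.02). Of the 5 macrophage markers analysed above, 2 fell, 0 rose and 3 did not pass the test.

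Branches of the pathway went in different directions. Of 8 pentose phosphate genes, 1 rose, 3 fell and 4 did not pass. The 3 were G6pdx, glucose-6-phosphate dehydrogenase, from 148 and 145 CPM to 51.4 and 47.3 CPM, Pgd, from 286 and 280.0 CPM to 96.1 and 92.0 CPM, and Tkt, transketolase, from 428 and 401 CPM to 142 and 145 CPM. Their log2 fold changes lay between -1.59 and -1.53 (edgeR adjusted p between 0.000534 and 0.000676), and these genes hardly differed between the 6F libraries. Rpia, ribose-5-phosphate isomerase, rose by 1.68 ± 0.38 (edgeR adjusted p = 0.0126). Of 10 tested glycogen genes, 7 rose and 0 fell, led by Pygl, a glycogen phosphorylase, at a log2 fold change of 2.63, Gyg, glycogenin, at 1.98, Gbe1, the branching enzyme, at 1.87 and Pygb, the brain phosphorylase, at 1.30. Of 6 genes of gluconeogenesis and pyruvate carboxylation, 2 rose and 1 fell. Me2, mitochondrial malic enzyme, and Pcx, pyruvate carboxylase, rose by 2.14 and 1.81 on the log2 scale, and Pck2 fell by 0.74.

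Among 16 tested regulators of glycolysis, 7 rose, 2 fell and 7 did not pass. Prkaa2, the AMP-activated kinase subunit of muscle, had 2.41 and 2.43 CPM in ADRCs and 233 and 147 CPM in 6F cells, and Ppargc1b, a coactivator of mitochondrial genes, drew 7 and 3 reads against 199 and 118 reads. Myc, which drives glycolytic genes in growing cells, fell from 125 CPM in each ADRC library to 7.72 and 26.4 CPM (log2 fold change -2.87 ± 0.51, edgeR adjusted p = 0.00551). Epas1, which encodes HIF-2 alpha, rose from 27.4 and 33.2 CPM to 234 and 122 CPM (edgeR adjusted p = 0.00208). Hif1a, named here after its values were seen, rose from 319 and 349 CPM to 828 and 772 CPM (edgeR adjusted p = 0.00149). Neither Epas1 nor Hif1a transcript was higher in 6F library b than in a. RNA counts do not measure the amount or activity of the encoded proteins, and their part in these results was not tested.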

How the data were processed

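RNA was depleted of rRNA before library preparation, per the labels' protocols. No source used here states that strand was kept, so overlapping and antisense genes are uncertain. GRCm38 is the build named by the submitters' processing notes. Aligner and counter: not given in the sources used here. In the 1 table used, which the authors deposited, total exon reads per gene and library are whole-number counts, per the file headers. The column names match a group and not a sample, so 1 measure was used per library, and a further 83 columns of per-library values were left out, normalized values among them. The 18045 rows with an exon length of 0 were not used.

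Counts were analysed with edgeR 4.0.16 in R 4.3.3 (filterByExpr, TMM, quasi-likelihood test, Benjamini-Hochberg adjustment over 12573 genes, threshold 0.05). The SE is the size of the log2 fold change divided by the square root of F. CPM and RPKM were computed here on TMM-scaled library sizes and the deposited exon length, which joins the exons of all isoforms. Intervals on ratios are exact (Clopper-Pearson, 95%) and cover counting error only. Positions are from GENCODE M21 on GRCm38 for all 34 members. In simulated data the procedure recovered 5 of 50 genes changed 1.5-fold and 31 of 50 changed 2-fold. The simulated spread between libraries was fixed and not matched to that of the 6F libraries. A missing call therefore does not show the lack of a change.

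The members and the lists of other pathways and markers were chosen with earlier results of these data known. The rule for names was all 34 members and, of each other list, up to 4 called genes by size of change. Alternatives were DESeq2 size factors, library size alone, no low-count filter, a CPM filter (mean of 1 or more), the Wald test of DESeq2 1.42.0, omission of the 3 ribosomal genes, thinning to 2273897 exon reads, omission of each library in turn, and a 2-fold threshold.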

Additional observations from a re-analysis of the deposited data

How the results depend on the processing

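No paired analysis was possible because the column names carry no replicate number. Unique exon reads and total gene reads were not run, since 1 measure per library was used. The 12 member calls kept their direction in all 11 alternative fits, and Pfkm, Aldoc, Ldhb, Pdk2, Mpc1 and Mpc2 were called in all 11. Leaving out single libraries gave 6 to 26 higher and 0 to 6 lower members, and 1220 to 4454 higher and 1165 to 4118 lower genes over all tested. Requiring a 2-fold change left 1815 lower genes. Scaling by library size alone shifted the median over all genes from 0.07 to 0.30 (log2). No member whose sign turned was called in the 4-library fit. With library size alone the log2 fold change was 0.011 for Hk2, 0.025 for Pfkfb4 and 0.036 for Aldoa. That of Bpgm became -0.00015 with DESeq2 size factors and -0.0087 with the CPM filter. Without single libraries the log2 fold change ranged from -0.46 to 2.45 for Slc2a3, -1.09 to 0.35 for Hk2, -0.26 to 0.56 for Pfkfb1, -0.69 to 0.20 for Aldoa, -0.050 to 0.89 for Tpi1, -0.11 to 0.056 for Bpgm, -0.45 to 0.51 for Pkm, -1.13 to 0.22 for Ldha, -0.16 to 0.28 for Slc16a1, -0.49 to 1.44 for Slc16a3, -0.0030 to 0.33 for Dld and -0.39 to 0.59 for Pdhx. The cause was not tested. Of 64 isoform shares recomputed on thinned reads, 3 moved by more than the SD of their group. Depth limits Aldoc, Pfkfb1, Pdk2 and Slc2a3 most, with 2 to 13 reads in each ADRC library.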
